A study of Mus musculus with 4 samples.

Results

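Chromatin accessibility around 10 CXC chemokine genes (Cxcl1, Cxcl2, Cxcl3, Cxcl9, Cxcl10, Cxcl11, Cxcl14, Cxcl16, Pf4 and Ppbp) was examined in mouse bone marrow-derived macrophages (BMDM) by ATAC-seq, which maps the DNA that a transposase can reach. The cells came from wild-type mice (C57BL/6 in the methods of the study) of 8 to 12 weeks and were grown from bone marrow for 6 days in L929 cell supernatant, a source of macrophage growth factor. The control group holds 2 libraries of untreated BMDM and the IL-4 group holds 2 libraries of BMDM given 20 ng/ml interleukin 4 (IL-4) for 1 h, so all 4 libraries share genotype and differentiation and differ in the cytokine. The peaks of the 4 libraries were merged wherever they shared at least 1 bp, and a merged region was taken for a chemokine gene when its highest peak was assigned to that gene in the deposited annotation. This gave 27 regions of 60710 in all. In all, 8 of the 10 genes held at least 1 region and Cxcl9 and Ppbp held none.

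CXC chemokines are small secreted proteins that guide leukocytes through G protein-coupled receptors. Cxcl1, Cxcl2, Cxcl3 and Ppbp attract neutrophils through CXCR2, Cxcl9, Cxcl10 and Cxcl11 are interferon-inducible and attract activated T cells through CXCR3, Pf4 and Ppbp are best known from platelet granules, Cxcl16 is a membrane-bound ligand of CXCR6, and Cxcl14 is made constitutively in many epithelia. In macrophages the CXCR2 and CXCR3 ligands are classical products of inflammatory activation through NF-kB and interferon-activated factors, whereas IL-4 acts through the transcription factor STAT6 and drives the alternative macrophage state. Most of the genes lie in clusters on mouse chromosome 5. Ppbp, Pf4, Cxcl3, Cxcl1 and Cxcl2 occupy chr5:90768518-90905938, a stretch of 137.4 kb, and Cxcl9, Cxcl10 and Cxcl11 occupy chr5:92321331-92363296 (all coordinates mm10). The RefSeq annotation of the C57BL/6J reference lists Cxcl11 as a transcribed pseudogene.

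The promoters of the CXCR2 ligands Cxcl1, Cxcl2 and Cxcl3 are shown first, because they share a match to the consensus of NF-kB, a factor of inflammatory activation. Each stretch runs from 115 to 56 bases before the RefSeq transcription start site (TSS) on the + strand (GRCm38.p6), and the capitals mark matches to the NF-kB consensus on either strand.
Cxcl1 promoter, chr5:90891130-90891189: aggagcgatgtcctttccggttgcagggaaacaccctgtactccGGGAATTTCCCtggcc
Cxcl2 promoter, chr5:90903784-90903843: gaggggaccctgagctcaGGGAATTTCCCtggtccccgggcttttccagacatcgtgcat
Cxcl3 promoter, chr5:90785986-90786045: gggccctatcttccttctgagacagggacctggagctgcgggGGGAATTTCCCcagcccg
All of them held the same run of letters in capitals, beginning at -71 in Cxcl1, -97 in Cxcl2 and -73 in Cxcl3. Promoter sequences were available for 8 of the 10 genes from RefSeq, and the NF-kB consensus was matched in 4 of them (Cxcl1, Cxcl2, Cxcl3 and Cxcl10), against 8.46% of all 32817 RefSeq promoters of the same length (250 bases before to 50 after the TSS). Of these 4 genes, Cxcl10 had a region over the TSS with a peak in 3 libraries, and none in IL-4 replicate 2. Cxcl2 had a peak over the TSS in control replicate 1 alone, higher than only 1.85% of the peaks of that library. Cxcl1 and Cxcl3 had none there in any library.

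The accessible regions on which the comparisons below turn are shown next, with the capitals marking matches to any of 6 motifs that are named with each one. The Cxcl10 and Cxcl11 regions are given on the - strand and the Cxcl3 and Pf4 regions on the + strand, in each case the strand of the gene.
Cxcl11 -4.8 kb, chr5:92367942-92368154, with a peak in IL-4 libraries only and a match to the STAT6 motif: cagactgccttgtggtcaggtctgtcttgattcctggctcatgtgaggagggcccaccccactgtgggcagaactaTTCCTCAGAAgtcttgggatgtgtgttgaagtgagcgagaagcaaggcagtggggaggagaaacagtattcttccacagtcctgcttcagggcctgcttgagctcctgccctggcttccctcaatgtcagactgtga
Cxcl11 -35.1 kb, chr5:92398337-92398512, with a peak in control libraries only and no match: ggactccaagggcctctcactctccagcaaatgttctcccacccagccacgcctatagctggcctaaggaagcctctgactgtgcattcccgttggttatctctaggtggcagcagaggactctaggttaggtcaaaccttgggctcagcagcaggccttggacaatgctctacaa
Cxcl3 -2.2 kb, chr5:90783827-90783946, with a peak in control libraries only and no match: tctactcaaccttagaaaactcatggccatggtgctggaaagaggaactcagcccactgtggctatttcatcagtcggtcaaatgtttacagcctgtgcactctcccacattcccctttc
Cxcl11 -6.0 kb, chr5:92369146-92369396, the highest chemokine region in 3 of the 4 libraries, with a match to the AP-1 motif: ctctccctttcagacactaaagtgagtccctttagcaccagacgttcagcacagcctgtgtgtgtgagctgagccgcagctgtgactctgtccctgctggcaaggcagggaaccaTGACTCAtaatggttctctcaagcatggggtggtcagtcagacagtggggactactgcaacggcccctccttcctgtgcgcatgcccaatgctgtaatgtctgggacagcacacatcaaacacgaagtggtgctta
Cxcl10 promoter, chr5:92348890-92349041, the part of the region before the TSS, with matches to the NF-kB and AP-1 motifs: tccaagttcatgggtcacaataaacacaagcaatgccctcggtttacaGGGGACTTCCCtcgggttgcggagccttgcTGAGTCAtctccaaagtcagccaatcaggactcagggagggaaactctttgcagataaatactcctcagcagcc
Pf4 promoter, chr5:90772222-90772434, the part of the region before the TSS, with a match to the PU.1 motif next to the TSS: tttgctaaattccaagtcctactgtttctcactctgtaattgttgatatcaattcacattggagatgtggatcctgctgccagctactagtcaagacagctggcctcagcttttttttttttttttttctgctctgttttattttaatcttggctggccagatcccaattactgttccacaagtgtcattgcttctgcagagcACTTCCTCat

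The distance of each region from the TSS of its gene ran from 37.9 kb upstream to 5.3 kb downstream, with a median size of 5498 bp against 14419 bp over all regions. Of the 27 regions, 6 were annotated as promoter (22.2%, against 18.8% of all regions), 10 as intronic and 11 as intergenic. All 10 intronic regions lay in Art3, an ADP-ribosyltransferase gene that spans chr5:92331799-92414628 and contains the Cxcl10 and Cxcl11 genes. The map of positions shows that 25 of the 27 regions lay upstream of their TSS, and that the regions of Cxcl11 and Cxcl1 reached furthest.

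**Figure D1:**
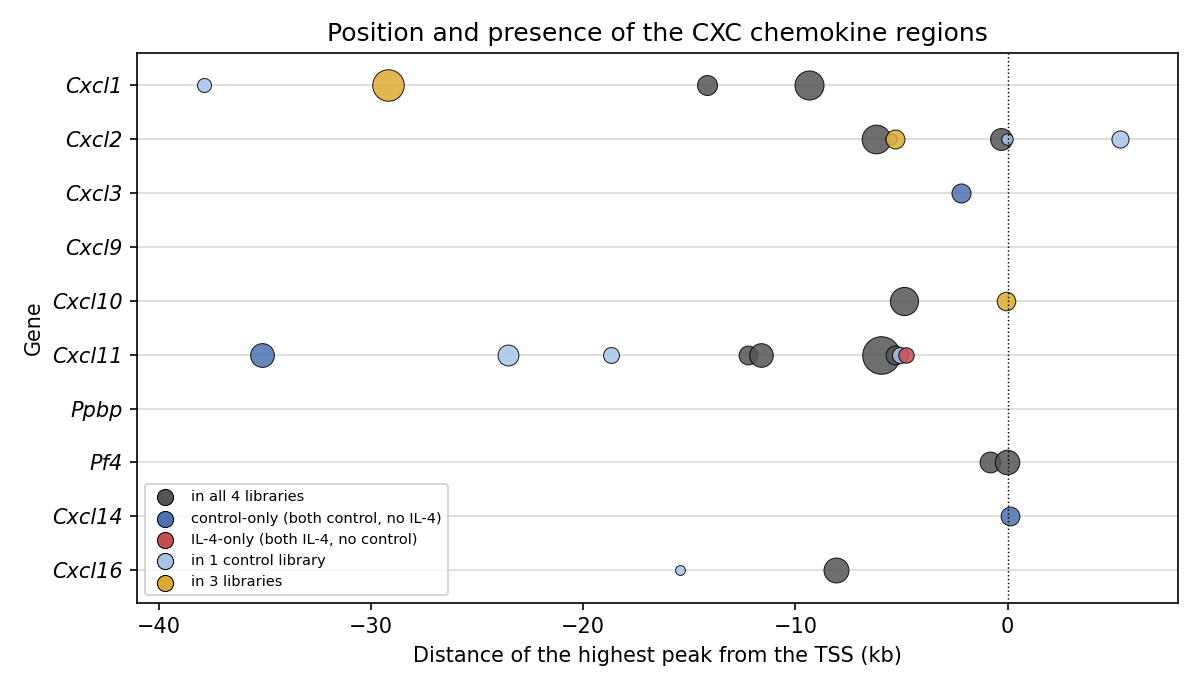
Distance of the highest peak of each region from the TSS of its gene, in kb, for the 10 genes. Point area is proportional to the highest peak height of the region and colour gives the libraries in which a peak was listed. Regions present in all 4 libraries lay within 14.2 kb of a TSS, the red point is the Cxcl11 region listed in both IL-4 libraries and neither control library, and Cxcl9 and Ppbp have no point.

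The libraries held between 39462 and 45250 peaks with a median height of 6.41 to 8.04. Peak height is the deposited score, read from its range as the -log10 q-value of the peak caller. IL-4 replicate 2 had the fewest peaks and the lowest median height, and control replicate 1 had the most peaks and the highest. Read numbers were not analysed here and sequencing depth is unknown. A peak that falls under the threshold of the caller is not listed at all. A missing peak is therefore a height below that threshold and does not by itself show an absence of accessibility. In bulk cultures, fewer cells with an open site and less opening per cell cannot be told apart. The macrophage identity of the cells was checked at promoters. Of 7 macrophage markers, 5 (Adgre1, Cd68, Spi1, Mertk and Fcgr1) had a promoter peak in all 4 libraries, and Csf1r and Itgam had peaks in or near the gene without a promoter annotation. The summed height of these 5 promoters was between 62.2 and 65.3 in control libraries, against 46.0 to 55.3 after IL-4. These are deposited heights, which were also lower after IL-4 over all regions listed in every library (median log2 change -0.21). No promoter peak was listed in any library for the markers of megakaryocytes and platelets (0 of 5), neutrophils (0 of 4), B cells (0 of 3), T cells (0 of 3), stromal cells (0 of 3) or endothelial cells (0 of 2). Regions away from a promoter were assigned to 2 of the 5 megakaryocyte and platelet, 2 of the 4 neutrophil, 0 of the 3 B cell, 2 of the 3 T cell, 1 of the 3 stromal and 2 of the 2 endothelial markers.

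Peaks in chemokine regions were fewer in the IL-4 libraries. There were 22 peaks in control replicate 1, 22 in control replicate 2, 17 in IL-4 replicate 1 and 15 in IL-4 replicate 2. The control libraries were equal and both exceeded both IL-4 libraries. The difference of -6 peaks had an exact two-sided permutation p = 0.3333, which is the smallest p that 2 libraries against 2 allow. Because the libraries also differed in their total number of peaks, the count was expressed per 10000 peaks of the library. The values of the control libraries, 4.862 and 5.252, again lay above those of the IL-4 libraries, 4.05 and 3.801 (exact permutation p = 0.3333).

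The fewer peaks were concentrated in regions that were listed in control libraries and in neither IL-4 library. Of the 27 regions, 11 (40.7%) had no peak in either IL-4 library, against 20.4% of all 60710 regions, and 1 (3.7%) had no peak in either control library, against 16.0% of all regions. The 11 regions belonged to 6 genes, were 101 to 184 bp wide and had heights of 1.86 to 10.87. The 12 regions that every library listed were 223 to 504 bp wide with heights of 3.11 to 27.14. Of the 11 regions, 3 were listed in both control libraries (11.1% of the 27, against 4.33% of all regions) and 8 in a single control library. All 8 chemokine regions that were listed in a single library were listed in a control library, 4 in each, whereas 54.3% of the 17958 such regions of the series were. No test of these counts was made, since regions are not replicates, and the part that the different peak totals of the libraries had in them was not tested. Some of the 11 regions adjoined a chemokine region with an IL-4 peak. The gaps were 0 and 21 bp at Cxcl2 and 58 bp at Cxcl11. The count with no IL-4 peak was 8 when peaks within 500 bp were merged, and 8 when a peak within 200 bp counted as present. No matching share of all regions was computed for these settings. With only the peaks above the pooled median height, 6 of 13 chemokine regions (46.2%) had no IL-4 peak, against 23.1% of the 30911 regions left. Without control replicate 1 or without control replicate 2, the number of regions with no IL-4 peak was 7 in place of 11, because the regions listed in the left-out library alone no longer counted. The control-only number was 7 without either control replicate and 5 without IL-4 replicate 1, since a single remaining library then stood for its group. The gene assignment mattered too. Within 50 kb of a TSS of the 10 genes lay 50 regions, 23 of them assigned to other genes. Of the 50 regions, 14 (28.0%) had no IL-4 peak and 6 (12.0%) had no control peak, nearer to the shares of all regions.

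**Figure D2:**
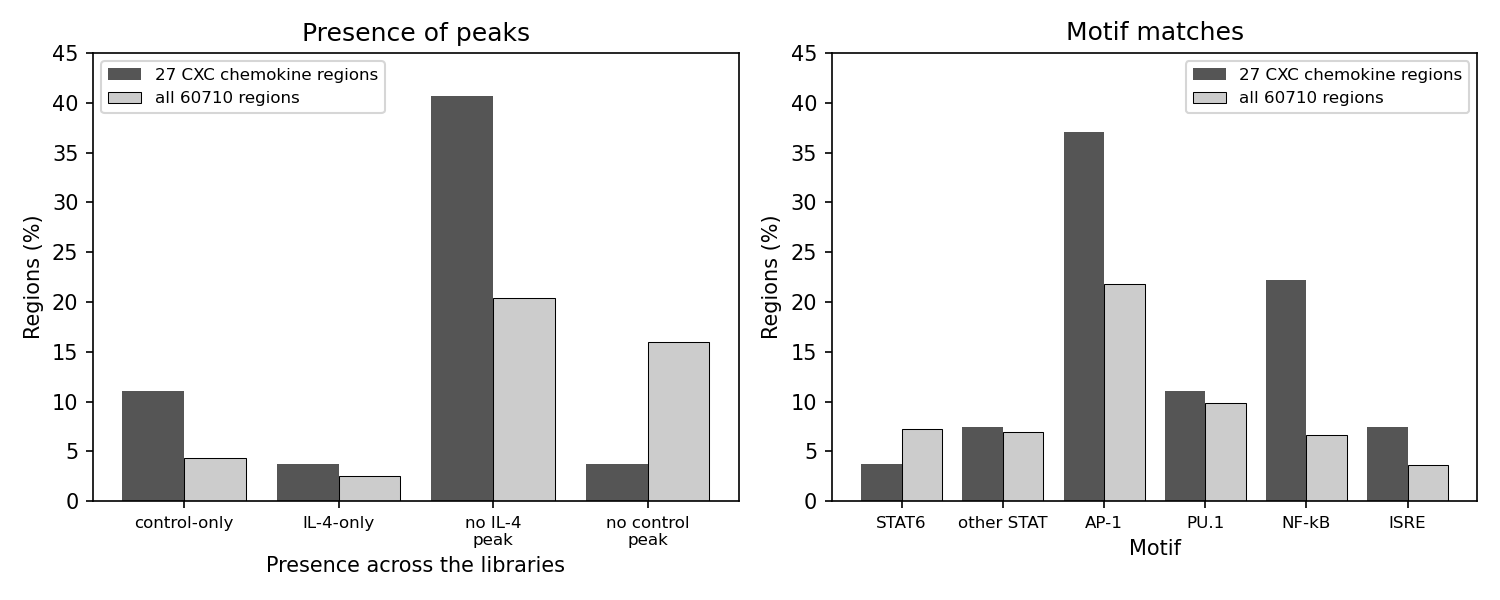
Percent of the 27 CXC chemokine regions (dark bars) and of all 60710 regions (light bars) with the presence pattern (left) or the motif match (right) named on the horizontal axis. The shares of regions without a peak in either IL-4 library were 40.7% and 20.4%, and the shares with an NF-kB match were 22.22% and 6.67%.

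The CXCR2 ligands Cxcl1, Cxcl2 and Cxcl3 held 11 regions. Of the 11 regions, 5 had no IL-4 peak and none lacked a control peak, against 20.4% and 16.0% of all regions. Cxcl1 (chr5:90891245-90893121) had 4 regions, all upstream and intergenic. At -9.4 kb (chr5:90881681-90882036) the heights were 16.18 and 12.53 in the control and 11.78 and 4.78 in the IL-4 libraries. Both IL-4 values lay below both control values, and IL-4 replicate 2 was the lowest. At -14.2 kb (chr5:90876968-90877353) they were 7.20 and 5.67 in the control and 4.14 and 7.66 in the IL-4 libraries, with the 2 IL-4 values on either side of the control values. At -29.2 kb (chr5:90861967-90862225) heights of 19.06 and 10.62 were listed in the control libraries and 11.92 in IL-4 replicate 1, with no peak in IL-4 replicate 2. The value of control replicate 1 exceeded 86.5% of the peaks of that library, and IL-4 replicate 2 is the library with the fewest peaks. The last Cxcl1 region, at -37.9 kb (chr5:90853312-90853426), had a height of 3.78 in control replicate 2 alone.

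Cxcl2 (chr5:90903899-90905938) encodes the macrophage inflammatory protein 2 and was the CXCR2 ligand with an accessible promoter. The region at -337 bp (chr5:90903308-90903811) had heights of 9.17 and 7.76 in the control and 5.08 and 4.72 in the IL-4 libraries. Both IL-4 libraries were below both control libraries, and the replicates of each group lay closer to each other than to the other group. It ended within the NF-kB match shown in capitals for the Cxcl2 promoter. The adjoining region at -28 bp (chr5:90903812-90903930), which started at the next base and covered the TSS, was listed in control replicate 1 alone with a height of 2.54. The upstream region at -6.2 kb (chr5:90897484-90897825) had heights of 15.78 and 10.32 in the control and 11.41 and 8.69 in the IL-4 libraries, which overlapped. Close to it, the region at -5.3 kb (chr5:90898492-90898654) had heights of 6.89 and 3.46 in the control libraries and 2.83 in IL-4 replicate 2, with no peak in IL-4 replicate 1. The regions at -5.5 kb (chr5:90898333-90898470) and +5.3 kb (chr5:90909127-90909227) were each listed in a single control library, with heights of 2.37 in control replicate 2 and 5.65 in control replicate 1.

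Cxcl3 (chr5:90786101-90788093) had a single region, at -2.2 kb (chr5:90783827-90783946), and it was control-only. Its heights were 6.96 and 2.66 in the control libraries, and no peak was listed in either IL-4 library. The value of control replicate 2 exceeded only 3.05% of the peaks of that library, so it lay near the threshold of the caller. Ppbp (chr5:90768518-90770063), the precursor of several platelet chemokines, had no region, and the nearest one in the series was the upstream Pf4 region 2855 bp from its TSS.

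**Figure D3:**
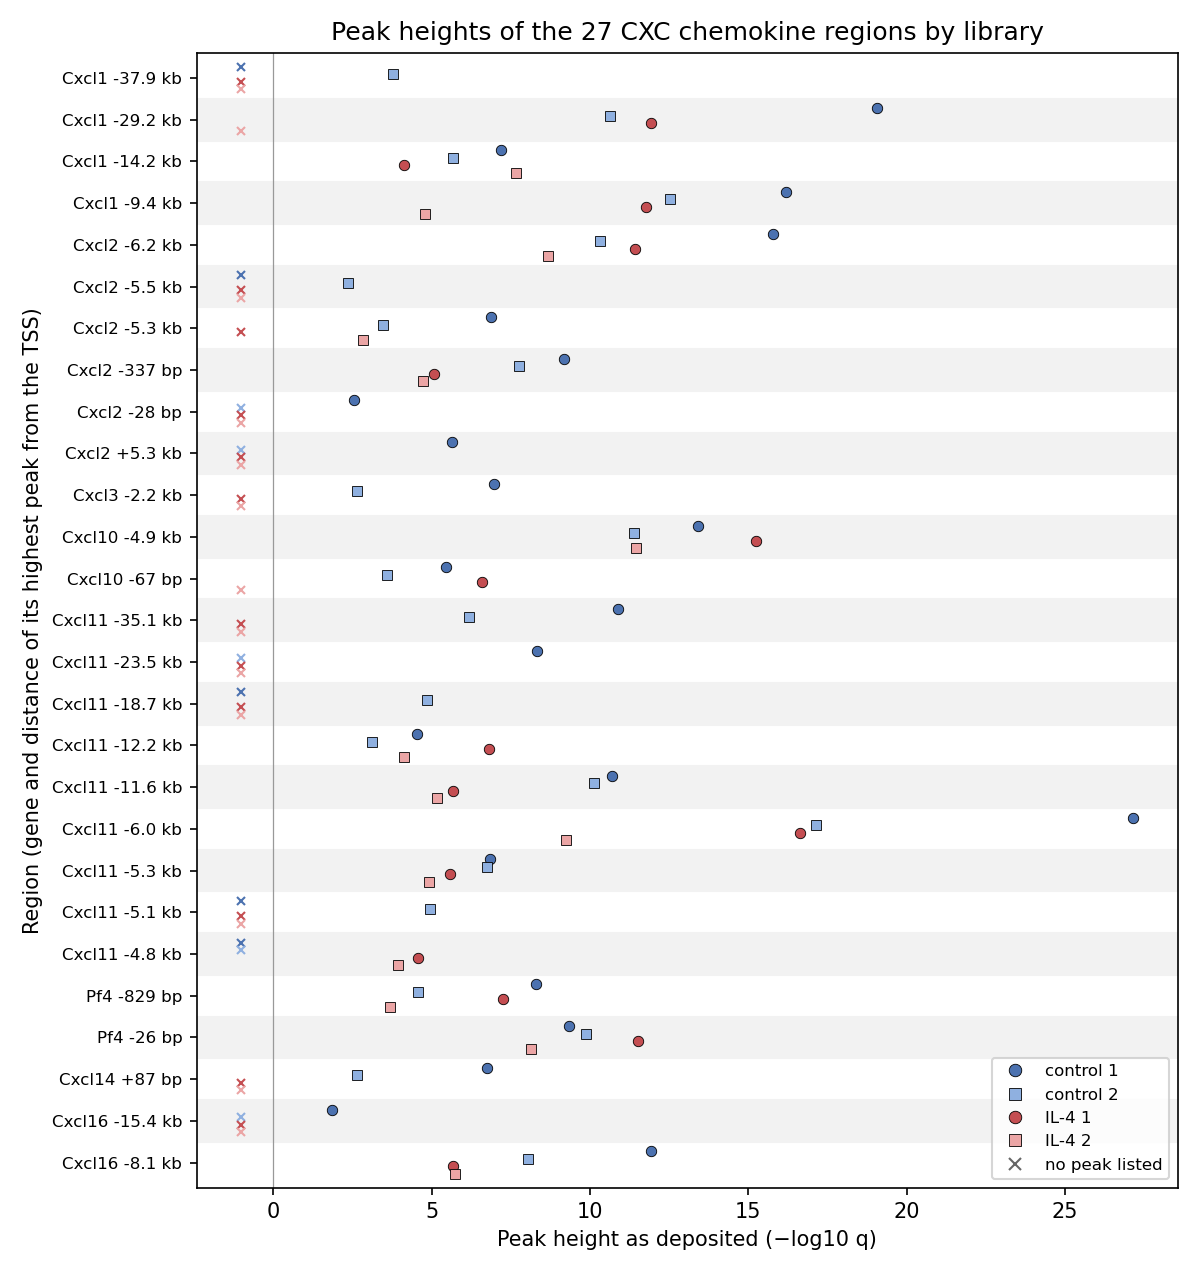
Deposited peak height (read as -log10 q) of each of the 27 regions in the 2 control libraries (blue) and the 2 IL-4 libraries (red), with circles for replicate 1 and squares for replicate 2. Crosses left of 0 mark libraries with no listed peak. The highest value is 27.14, at Cxcl11 -6.0 kb in control replicate 1, and 11 regions have crosses for both IL-4 libraries.

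The CXCR3 ligands Cxcl10 and Cxcl11 held 11 regions. Of the 11 regions, 4 had no IL-4 peak and 1 had no control peak, against 20.4% and 16.0% of all regions. All of these were regions of Cxcl11, the transcribed pseudogene. The promoter of Cxcl10 (chr5:92346638-92348889), whose product is the interferon-induced protein IP-10, was accessible. The region at -67 bp (chr5:92348846-92349041) had heights of 5.46 and 3.59 in the control libraries and 6.60 in IL-4 replicate 1, the highest of them, and no peak in IL-4 replicate 2. The region at -4.9 kb (chr5:92353601-92353926), in an Art3 intron, had heights of 13.41 and 11.40 in the control and 15.23 and 11.44 in the IL-4 libraries. The groups overlapped, and the region exceeded 70.0% to 81.2% of the peaks of each library. Cxcl9 (chr5:92321331-92328079) had no region. The region nearest its TSS lay 4463 bp away, was assigned to Art3, and was listed only in IL-4 replicate 2 with a height of 2.49.

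Cxcl11 had 9 regions, more than any other of the 10 genes, all within Art3. The highest of the 9 was at -6.0 kb (chr5:92369146-92369396), with heights of 27.14 and 17.14 in the control and 16.64 and 9.25 in the IL-4 libraries. Both IL-4 values were below both control values, although the higher IL-4 value and the lower control value were close. It exceeded 95.3% and 85.9% of the peaks of the control libraries and 84.1% and 68.2% of those of the IL-4 libraries. Its neighbour at -5.3 kb (chr5:92368487-92368750) had heights of 6.85 and 6.74 in the control and 5.59 and 4.92 in the IL-4 libraries. Some kilobases further out, 2 regions of the same intron had changes of opposite sign, neither of which passed the test. At -11.6 kb (chr5:92374754-92375110) the heights were 10.71 and 10.14 in the control and 5.69 and 5.18 in the IL-4 libraries without overlap. At -12.2 kb (chr5:92375408-92375630) they were 4.54 and 3.11 in the control and 6.80 and 4.13 in the IL-4 libraries, which overlapped as deposited.

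Cxcl11 also held the single IL-4-only region of the 27 (3.7%, against 2.53% of all regions). At -4.8 kb (chr5:92367942-92368154) no peak was listed in either control library and heights of 4.58 and 3.95 were listed in the IL-4 libraries. They exceeded 22.2% and 25.9% of the peaks of these libraries, so both were among the lower peaks. Separated from it by 117 bp, the region at -5.1 kb (chr5:92368272-92368428) was listed in control replicate 2 alone with a height of 4.95. When a control peak within 200 bp counted as present, or when peaks within 500 bp were merged, no IL-4-only region was left. The region at -35.1 kb (chr5:92398337-92398512) was control-only with heights of 10.87 and 6.18, above the other two control-only regions in each control library. The remaining regions, at -18.7 kb (chr5:92381901-92382034, 4.86 in control replicate 2) and at -23.5 kb (chr5:92386770-92386881, 8.34 in control replicate 1), were each listed in a single control library.

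Pf4 (chr5:90772435-90773383), platelet factor 4, had the promoter region that was highest among the 10 genes in each of the 4 libraries, and no marker of platelets or megakaryocytes had a promoter peak. The region at -26 bp (chr5:90772222-90772555) had heights of 9.34 and 9.88 in the control and 11.53 and 8.14 in the IL-4 libraries, with the IL-4 values on either side of the control values. The region at -829 bp (chr5:90771373-90771726) had heights of 8.29 and 4.58 in the control and 7.26 and 3.68 in the IL-4 libraries. There the replicates differed more than the groups, with replicate 1 the higher in each group. In Cxcl14, the sole region was at the promoter (chr13:56296377-56296554, +87 bp) and control-only, with heights of 6.74 and 2.66. The second value exceeded only 3.05% of the peaks of control replicate 2. In Cxcl16, the region at -8.1 kb (chr11:70467953-70468207) had heights of 11.92 and 8.04 in the control and 5.67 and 5.75 in the IL-4 libraries. The groups did not overlap and the IL-4 replicates were nearly equal. The other Cxcl16 region, at -15.4 kb (chr11:70475308-70475491), was listed in control replicate 1 alone with a height of 1.86.

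The 12 regions listed in every library were compared between groups on log2 heights after quantile normalisation, which gives the 4 libraries the same distribution of heights. They were fitted with limma together with all 25442 such regions of the series. None of the 12 passed an adjusted p of 0.05 and none had an unadjusted p under 0.05, against 0.0236% and 8.28% of all regions. In the whole series 6 regions passed. The adjusted p of the 12 regions was between 0.649 and 0.994. The change was negative in 8 regions and positive in 4, with a median of -0.12 against 0.00 over all regions, and 50.1% of all regions were negative. The median was -0.34 without control replicate 2, -0.25 without IL-4 replicate 1, -0.20 without IL-4 replicate 2 and -0.06 without control replicate 1. It was -0.52 over the 9 regions left when peaks within 500 bp were merged, and -0.53 over 19 regions when missing heights were filled with the lowest score, which counts missing peaks as changes. The deposited heights themselves, before normalisation, had a median log2 change of -0.21 over all regions and -0.37 over the 12.

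The log2 change was -0.70 ± 0.45 (SE, n = 2 against 2 libraries; limma adjusted p = 0.715) at Cxcl1 -9.4 kb, -0.68 ± 0.50 (limma adjusted p = 0.775) at Cxcl11 -11.6 kb, and -0.60 ± 0.33 (limma adjusted p = 0.649) at Cxcl11 -6.0 kb. The Cxcl2 promoter region at -337 bp had a change of -0.56 ± 0.53 and Cxcl16 -8.1 kb of -0.53 ± 0.51. The size of several of these changes rested on single libraries. Cxcl1 -9.4 kb was at -0.21 without IL-4 replicate 2 and -1.18 without IL-4 replicate 1, and Cxcl11 -6.0 kb was at -0.34 without control replicate 1 or IL-4 replicate 2. Cxcl16 -8.1 kb was at -0.34 without control replicate 1 and -0.35 without IL-4 replicate 1. These 5 regions were those in which both IL-4 libraries lay below both control libraries after normalisation, 41.7% of the 12 against 18.6% of all regions. The changes at Cxcl11 -12.2 kb, Cxcl10 -4.9 kb and the Pf4 promoter at -26 bp were 0.74 ± 0.55, 0.33 ± 0.38 and 0.27 ± 0.45, and there both IL-4 libraries lay above both control libraries (25.0% of the 12, against 19.2% of all regions). In Cxcl1 -14.2 kb, Cxcl2 -6.2 kb, Cxcl11 -5.3 kb and Pf4 -829 bp the groups overlapped and the changes were between -0.13 and 0.08. On the deposited heights, 6 of the 12 regions lay below in both IL-4 libraries and 0 above, against 29.3% and 8.83% of all regions. By receptor, the median change was -0.34 over the 4 regions of the CXCR2 ligands and -0.13 over the 5 regions of the CXCR3 ligands. Of these 5 regions, 4 belonged to Cxcl11, and the other, Cxcl10 -4.9 kb, had a change of 0.33. The plot of changes shows that all 12 points lay within the range that holds 95% of all regions.

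**Figure D4:**
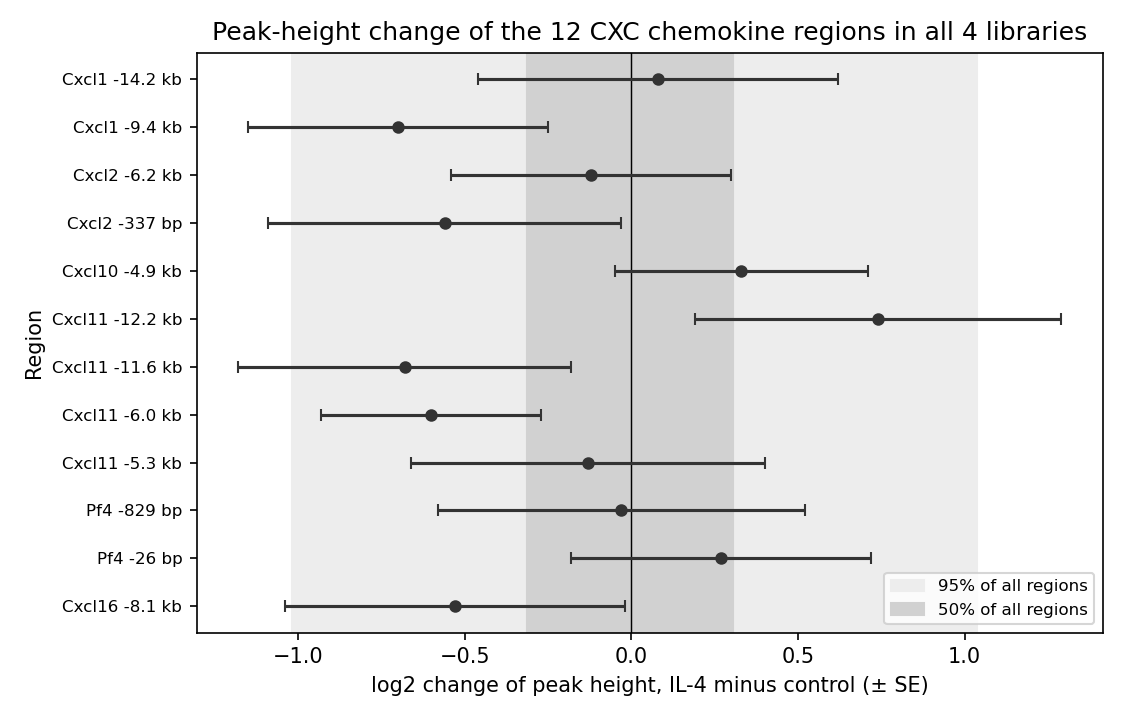
Change in log2 quantile-normalised peak height, IL-4 minus control, with its limma standard error, for the 12 chemokine regions present in all 4 libraries. The grey bands hold the central 95% (-1.02 to 1.04) and the central 50% (-0.31 to 0.31) of the changes of all 25442 regions. All 12 points lie within the wider band.

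Sequence motifs were searched on both strands in the 27 regions, whose median width of 213 bp was close to the 209 bp of all regions. No 2 matches of different motifs overlapped. The STAT6 motif (TTCNNNNGAA) was found in 1 region (3.7%, against 7.22% of all regions), and this was the IL-4-only region at Cxcl11 -4.8 kb. In the whole series the motif was in 30.9% of the 1534 IL-4-only regions and in 2.24% of the 2630 control-only regions, and none of the 3 control-only chemokine regions held it. The STAT motif with the shorter spacing (TTCNNNGAA) was in 2 regions, Cxcl1 -14.2 kb and Cxcl10 -4.9 kb, a share of 7.41% against 6.9% of all regions. The AP-1 motif (TGANTCA), bound by Fos and Jun proteins, was in 10 regions (37.04%, against 21.85%). The NF-kB consensus was in 6 regions (22.22%, against 6.67%). They were the promoter regions of Pf4 (-26 bp), Cxcl2 (-337 bp) and Cxcl10, and the regions at Cxcl10 -4.9 kb, Cxcl11 -11.6 kb and Cxcl16 -8.1 kb. Of these 6 regions, 5 were in every library, and their changes ran from -0.68 at Cxcl11 -11.6 kb to 0.33 at Cxcl10 -4.9 kb. The motif of PU.1 (GAGGAAGT), a factor that defines macrophages, was in 3 regions (11.11%, against 9.87%). The interferon-stimulated response element (GAAANNGAAA) was in 2 regions (7.41%, against 3.62%), at Cxcl1 -37.9 kb and Cxcl11 -5.3 kb. These shares are descriptions of letters in the regions, and factor binding was not measured.

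The receptors and the other ligands of the same system were looked at by height changes, promoter regions and group-only counts. How many of their regions had no IL-4 peak or no control peak was not counted. Of 8 CXC and scavenger receptor genes, 7 held a total of 37 regions, 17 of them at Cxcr4, the receptor of Cxcl12, and Cxcr2 held none. Of the 15 receptor regions in all 4 libraries, 10 had a negative and 5 a positive change, and 50.1% of all regions were negative. Of the 15, 0 passed the limma test at an adjusted p of 0.05, against 0.0236% of all regions. An unadjusted p under 0.05 was found in 1, against 8.28% of all regions, and its log2 change was positive (0.903, at Cxcr4 -129935 bp). Promoter regions were listed for Cxcr4 and Cxcr3 only. At Cxcr4 -82 bp (chr1:128592326-128592489) heights of 2.94 and 3.64 were listed in the control libraries and no peak in the IL-4 libraries. At Cxcr4 -338 bp (chr1:128592513-128592724) the heights were 5.51 in control replicate 1 and 4.76 in IL-4 replicate 1, with no peak in either replicate 2. At Cxcr3 +45 bp (chrX:101734052-101734210), at the receptor of Cxcl9, Cxcl10 and Cxcl11, the heights were 3.69 in control replicate 2 and 4.38 and 3.40 in the IL-4 libraries. Of 5 other CXC ligand genes (Cxcl5, Cxcl12, Cxcl13, Cxcl15 and Cxcl17), 4 held 14 regions with none at a promoter. Of their 5 regions in all 4 libraries, 4 had a negative and 1 a positive change, and 0 passed the same test. An unadjusted p under 0.05 was found in 1, with a negative change (-0.828, at Cxcl12 269819 bp). The shares over all regions are those given for the receptors. Of the 37 receptor regions, 2 were control-only and 0 IL-4-only. Of the 14 regions of the other ligands, 0 were control-only and 1 was IL-4-only, at Cxcl12 -1549 bp with heights of 5.58 and 6.29. Over all regions the shares were 4.33% control-only and 2.53% IL-4-only.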

How the data were processed

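ATAC-seq libraries of 2 control and 2 IL-4-treated BMDM cultures, described by the study as biological replicates, were analysed from the authors' peak lists. Per the submitters' processing notes the reads were handled with BWA 0.7.10, SAMtools 0.1.19, MACS2 2.0.10 and HOMER 4.2 on mm10. The methods of the study name a q threshold of 0.01, and the deposited scores reach down to 1.3, or q = 0.05. The deposited Peak Score was read as a −log10 q-value from its range, since no header states the unit. It grows with depth, and the depth per library is unknown, so no interval for counting error could be given. Each peak carried the gene, annotation and distance to the TSS that the authors assigned.

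Peaks were merged into regions at an overlap of at least 1 bp with Python 3.11.15 and pandas 2.3.3. The height of a region in a library was that of its highest peak there. Regions in all 4 libraries were fitted with limma 3.58.1 (R 4.3.3) on log2 heights after quantile normalisation, with a trended variance, empirical Bayes moderation and Benjamini-Hochberg adjustment over all 25442 regions. A region was control-only or IL-4-only when both libraries of that group and neither of the other listed a peak. Peak numbers were compared by exact permutation of the 4 libraries. Sequences and motif matches came from GRCm38.p6 (RefSeq), the assembly of mm10. Region merging, the fit and the motif search were tested on simulated data.

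A gene with up to 5 regions was described by every region, and one with more by the region nearest the TSS, those with an unadjusted p under 0.05 and those listed in a single group, with the other regions added for completeness. The chemokine genes, the gene lists and the motifs were chosen with earlier results of these data known. Older symbols in the files (Emr1, Sfpi1, Cxcr7 and Darc) were read as Adgre1, Spi1, Ackr3 and Ackr1. The alternatives tried were other normalisations and filters, wider merging, other gene assignments, a replicate block and each library left out.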

Additional observations from a re-analysis of the deposited data

How the results depend on the processing

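No chemokine region passed the limma test under any of the 11 alternatives, and the difference in peaks per library stayed negative under all 8. The median log2 change was -0.53 with missing heights set to the lowest score (19 regions) and -0.52 after merging within 500 bp (9 regions), and ranged from -0.34 to -0.06 with a library left out. The number of regions with an unadjusted p under 0.05 was 2 with missing heights set to the lowest score and ranged from 0 to 2 with a library left out. The 2 regions with filled heights were listed in a single group and held only filled values in the other. That count restates which peaks were listed and tests no change. With a library left out the regions were Cxcl1 -9.4 kb and Cxcl11 -6.0 kb. With 1 library left in a group, its spread is assumed to be that of the other group. The control-only count ranged from 4 to 7 with a library left out. The IL-4-only count was 0 with peaks above the pooled median, 0 after merging within 500 bp and 0 with a tolerance of 200 bp. The count with no IL-4 peak was 6 with peaks above the pooled median. It was 8 after merging within 500 bp and 8 with the tolerance of 200 bp, and ranged from 7 to 13 with a library left out. The count with no control peak was 0 after merging within 500 bp, 0 with the tolerance of 200 bp, and 6 within 50 kb of a TSS. The STAT6 motif was in 0 of the 12 chemokine regions in all 4 libraries, against 8.92% of all 25442 such regions. Of the 132 values for single regions, 7 changed sign. Pf4 -829 bp was 0.03 with missing heights set to the lowest, and between -0.38 and 0.32 with a library left out. Merging within 500 bp joined it to Pf4 -26 bp, and the joint region was at 0.28. Cxcl11 -12.2 kb was -0.54 after merging with its neighbour at -11.6 kb. With a library left out, Cxcl2 -6.2 kb ranged from -0.34 to 0.10 and Cxcl1 -14.2 kb from -0.54 to 0.67. The cause of these shifts was not tested, beyond the regions and libraries that each alternative adds or removes. The alternatives for regions with no IL-4 or control peak and for regions below in both IL-4 libraries were chosen after seeing the data.

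The labels give the groups the same replicate numbers but no shared animal or day, and deviations of same-numbered libraries were not correlated across regions (Pearson r = 0.00677, Spearman rho = 0.00637). With a replicate block, 0 of the 12 chemokine regions and 14 regions of the series passed, against 6 without it. Depth is not known, and its part in which peaks were listed was not tested.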
